A study of Mus musculus with 4 samples.

Results

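Luminal barcodes that carried markers of both luminal lineages of the mouse mammary gland were examined in organoid cultures. A barcode stands for the content of 1 droplet. A barcode was kept when it held at least 3000 unique molecule counts (UMIs) over genes, of which no more than 15% were mitochondrial. A kept barcode was called luminal at 20 or more Krt8 and Krt18 UMIs per 10000 and fewer than 10 UMIs per 10000 of the basal keratins Krt5, Krt14 and Krt17. It was called double-marker when it also held at least 50 Lcn2 UMIs per 10000 and at least 3 UMIs, summed, of Prlr, Esr1, Pgr and Cited1. This rule found 2346 double-marker barcodes among 10760 luminal, 15344 kept and 19382 deposited barcodes. The COL1/STIFF pool gave 1277 of these and the MATR/SOFT pool 1069.

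The organoids were grown from fat pads, freed of lymph nodes, of virgin mice 8 to 9 weeks old. The strain is not given in the sources used here. There were 4 culture conditions, a collagen matrix (COL1), a stiff matrix (STIFF), Matrigel (MATR) and a soft matrix (SOFT), each with 1 culture, so that no difference could be tested and all intervals are 95% intervals that cover counting error only. Cells of each condition were marked with an antibody hashtag, COL1 and STIFF cells shared 1 droplet channel, and MATR and SOFT cells shared the other. The pools held 133608252 and 131036333 gene UMIs over 10615 and 8767 barcodes, and 22 barcode sequences occurred in both. The names of the deposited matrices pair hashtag 1 with COL1 and MATR and hashtag 2 with STIFF and SOFT. An exchanged pairing would turn around every comparison within a pool.

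The luminal layer of the mammary duct is made of hormone-sensing cells, which carry the receptors for oestrogen, progesterone and prolactin, and of receptor-negative cells, which include the alveolar progenitors. Hormone-sensing cells pass the hormone signal on through secreted factors such as amphiregulin (Areg) and Wnt4. Receptor-negative cells depend on the transcription factor Elf5 and express Kit, milk proteins and antimicrobial secreted proteins such as lipocalin 2 (Lcn2). A droplet that takes up a cell of each kind also gives a barcode with markers of both, and free RNA in the cell suspension adds a low count of abundant transcripts to every droplet.

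The luminal barcodes outside the rule gave 2 single-marker groups. The Lcn2-high group passed the Lcn2 minimum with fewer than 3 receptor UMIs (1330 and 1335 barcodes, COL1/STIFF given before MATR/SOFT here and wherever a pair of values follows), and the receptor-positive group passed the receptor minimum below the Lcn2 minimum (2438 and 3174 barcodes). Neither minimum was reached by 46 and 91 luminal barcodes. Double-marker barcodes were 25.1% (23.9 to 26.3) and 18.9% (17.8 to 19.9) of luminal barcodes. They were 49.0% (47.0 to 50.9) and 44.5% (42.5 to 46.5) of all luminal barcodes that passed the Lcn2 minimum. Of those that passed the receptor minimum they were 34.4% (32.8 to 35.9) and 25.2% (23.9 to 26.5).

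The label was checked against its 4 markers, of which Lcn2, Prlr and Cited1 belong to the rule and Wfdc18 does not. Wfdc18, a secreted protein of receptor-negative luminal cells, stood at 2685 CPM (UMIs per 1000000) in the summed double-marker barcodes of the COL1/STIFF pool. It was 4130 in the Lcn2-high and 224 in the receptor-positive group. In the MATR/SOFT pool the summed levels were 2794, 3723 and 203. Prlr, the prolactin receptor, was at 1016 CPM in double-marker barcodes against 57.1 in the Lcn2-high and 2584 in the receptor-positive group of the COL1/STIFF pool. Cited1, a transcriptional coactivator of hormone-sensing cells, was at 90.01, 1.67 and 262 in the same order. The levels of Lcn2, Prlr and Cited1 were set by the rule and check nothing. Wfdc18 alone stood outside it and bears only on the receptor-negative side of the label. The hormone-sensing side was not checked by these markers, and the barcodes were not alike, as described below.

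The receptor minimum was met mostly by Prlr. Prlr made up 84.9% of the receptor UMIs of double-marker barcodes in the COL1/STIFF pool and 81.4% in the MATR/SOFT pool, with a median of 21 and 12 UMIs per barcode. At least 3 Prlr UMIs were found in 1241 and 1028 barcodes. Pgr, the progesterone receptor, was detected in 65.0% (62.3 to 67.6) and 58.6% (55.5 to 61.5) of double-marker barcodes. For Cited1 the shares were 49.96% (47.2 to 52.7) and 42.6% (39.6 to 45.6). Esr1, the oestrogen receptor alpha, was detected in 29.3% (26.8 to 31.9) and 24.6% (22.0 to 27.3) and reached 3 UMIs in 22 and 12 barcodes.

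In mm10 coordinates of the RefSeq annotation, Lcn2 lies at chr2:32384637-32387739 and Prlr at chr15:10177238-10349190. The receptor gene Esr1 is at chr10:4611989-5005633, Pgr at chr9:8898900-8968611 and Cited1 at chrX:102247378-102252181.

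Double-marker barcodes were deeper than both single-marker groups. Their median was 26427 gene UMIs (25259 to 27694) in the COL1/STIFF pool, against 9381.5 (8980 to 9858) in the Lcn2-high and 11858 (11596 to 12123) in the receptor-positive group. In the MATR/SOFT pool the medians were 27920 (26588 to 29431), 11668 (11162 to 12303) and 12519.5 (12318 to 12691). The luminal barcodes with macrophage genes described below had 30592 and 27606. The double-marker median was 1.24 and 1.15 times the sum of the 2 single-marker medians. The distributions overlapped. In the COL1/STIFF pool 57.6% of double-marker barcodes lay above the 90th percentile of the Lcn2-high group, 48.0% lay above that of the receptor-positive group and 11.5% below its median. The matching shares in the MATR/SOFT pool were 50.2%, 58.7% and 11.8%. Because the receptor minimum is a raw count, depth itself bears on who passes it.

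**Figure D1:**
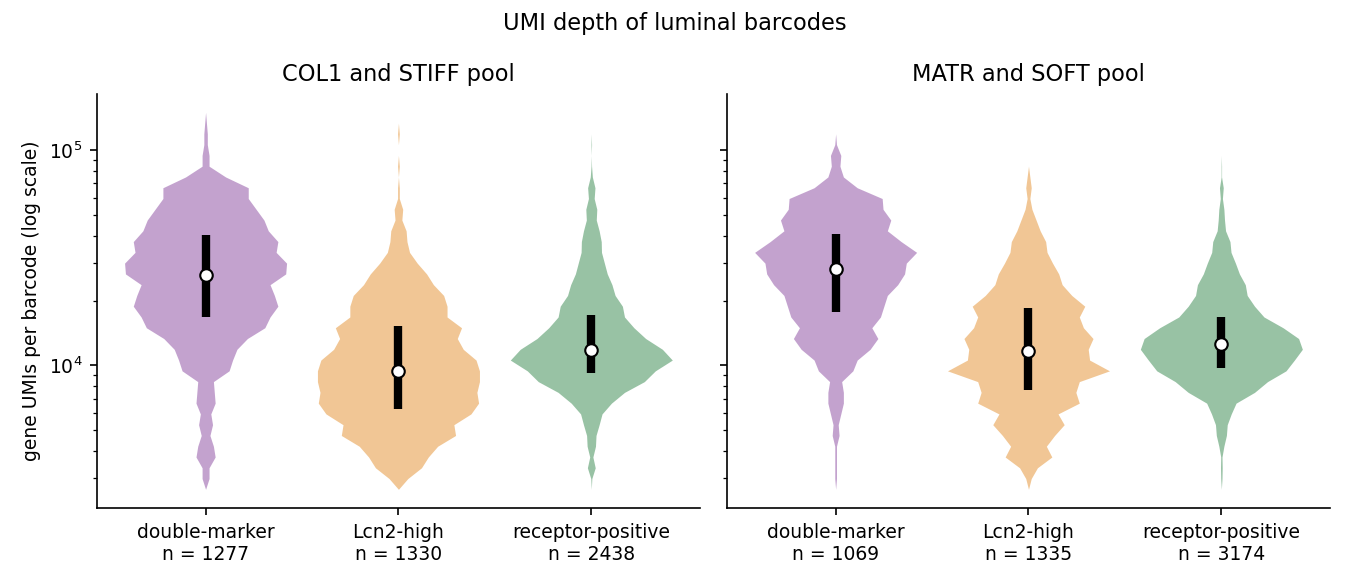
Gene UMIs per barcode (log axis) in the 3 luminal groups of each pool. The shape shows the distribution, scaled to the same greatest width, the bar the quartiles and the circle the median. Double-marker medians of 26427 and 27920 UMIs stand above those of both single-marker groups in each pool.

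Gene number followed depth. Double-marker barcodes had a median of 5132 and 5187 detected genes, against 2650 and 3064 in the Lcn2-high and 3381 and 3392 in the receptor-positive group. When every barcode was thinned to 3000 UMIs, the medians were 1358, 1252 and 1426 genes in the COL1/STIFF pool and 1340, 1252 and 1395 in the MATR/SOFT pool. At equal depth, double-marker barcodes thus showed fewer genes than receptor-positive and more than Lcn2-high barcodes. With thinning to 3000 UMIs before the rule and a receptor minimum of 1 UMI, 1288 and 1003 barcodes passed, or 51.3% and 43.7% of those past the Lcn2 minimum. Of these, 956 and 731 were also double-marker by the rule. Depth and receptor minimum were changed together here, so their parts cannot be told apart.

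A droplet that takes up cells of both cultures carries both hashtags, while a pair of cells from the same culture carries 1. Among double-marker barcodes with at least 1 hashtag called, 125 of 894 carried both in the COL1/STIFF pool, or 14.0% (11.8 to 16.4), and 109 of 785 did in the MATR/SOFT pool, or 13.9% (11.5 to 16.5). In the Lcn2-high group the shares were 1.95% (0.637 to 4.50) and 2.08% (0.842 to 4.25), and in the receptor-positive group 5.95% (4.91 to 7.14) and 4.64% (3.82 to 5.57). The intervals of double-marker barcodes did not overlap those of either group in either pool. Luminal barcodes with at least 20 UMIs per 10000 of the macrophage genes Lyz2, C1qa, C1qb, C1qc and Tyrobp, a pairing of lineages not expected in 1 cell, carried both hashtags in 37.3% (29.6 to 45.4) and 36.2% (24.99 to 48.7). No hashtag was called on 30.0% and 26.6% of double-marker barcodes, 80.8% and 74.8% of Lcn2-high barcodes and 24.9% and 25.9% of receptor-positive barcodes, so that the Lcn2-high shares rest on 256 and 336 tagged barcodes. A second caller, the relative rule, sets each hashtag against its own background and left 14.8% and 6.27% of double-marker barcodes without a call. With it, 2.39% (1.57 to 3.48) and 2.99% (2.03 to 4.25) of tagged double-marker barcodes carried both hashtags, 0.134% and 0.190% of Lcn2-high, 0.923% and 0.857% of receptor-positive, and 7.69% and 10.1% of luminal barcodes with macrophage genes. The shares were lower throughout, in the same order of groups.

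The share with both hashtags was higher in deeper barcodes of the double-marker and of the receptor-positive group. Of tagged double-marker barcodes in the COL1/STIFF pool, 6.19% (3.43 to 10.2) carried both hashtags at 15000 to 25000 UMIs, 8.18% (5.20 to 12.1) at 25000 to 40000 and 28.8% (23.7 to 34.3) at 40000 or more. Receptor-positive barcodes of those depths had 6.83% (4.66 to 9.61), 15.7% (10.8 to 21.7) and 43.9% (33.9 to 54.3). In the MATR/SOFT pool the double-marker shares were 2.96% (0.967 to 6.77), 12.9% (9.20 to 17.4) and 26.6% (21.2 to 32.5), and the receptor-positive shares 3.96% (2.60 to 5.74), 20.3% (15.4 to 26.05) and 50% (37.0 to 63.0). Between 15000 and 40000 UMIs double-marker barcodes had 7.27% (5.15 to 9.93) and 9.15% (6.65 to 12.2), and receptor-positive barcodes 9.46% (7.28 to 12.0) and 8.29% (6.56 to 10.3). The intervals overlapped in each pool, but depth was not equal within this range, which held 344 double-marker barcodes below and 353 above 25000 UMIs in the COL1/STIFF pool against 491 and 191 receptor-positive ones, and 259 and 344 against 723 and 244 in the other. In each narrower range above, the receptor-positive share was the higher. At 8000 to 15000 UMIs the double-marker share was the higher, at 4.40% (1.21 to 10.9) and 1.27% (0.0320 to 6.85). Receptor-positive barcodes of that depth had 0.748% (0.301 to 1.53) and 0.316% (0.0862 to 0.808). These double-marker shares rest on 4 of 91 and 1 of 79 tagged barcodes, and the intervals overlapped in each pool. Between 15000 and 40000 UMIs Lcn2-high barcodes had 2.61% (0.541 to 7.43) and 2.15% (0.589 to 5.41). How many double-marker barcodes were pairs of cells with the same hashtag was not tested.

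**Figure D2:**
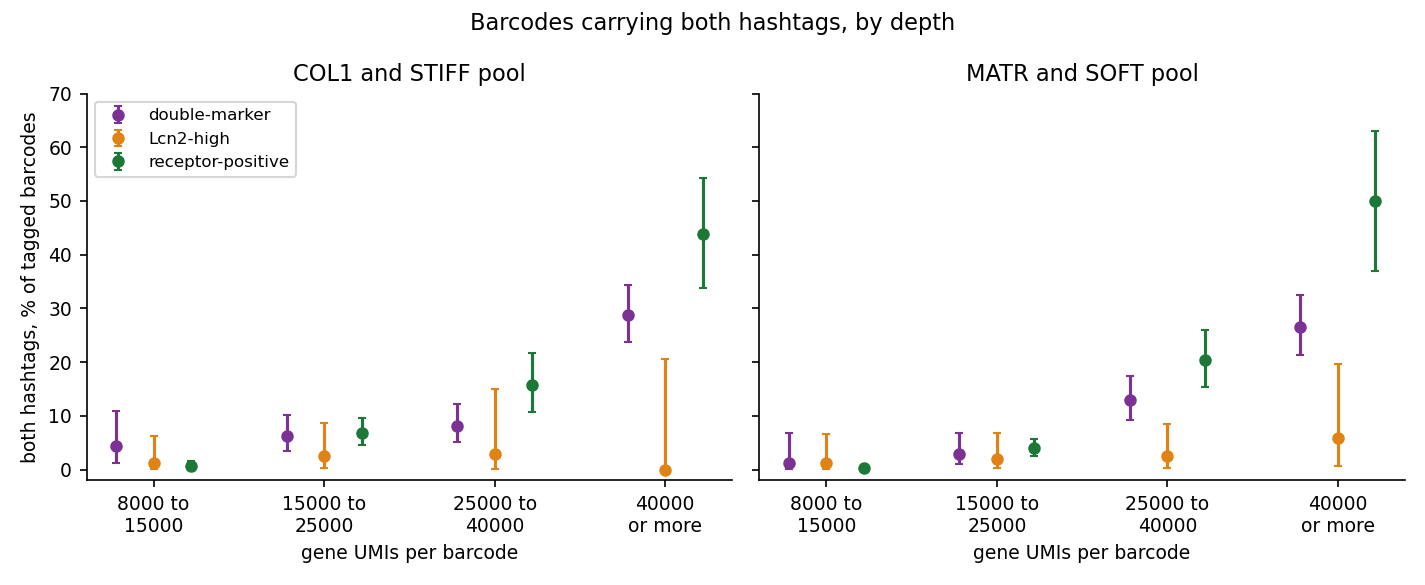
Share of tagged barcodes that carried both hashtags (percent, with exact 95% intervals) against gene UMIs per barcode, for the 3 luminal groups of each pool. At 40000 UMIs or more the double-marker shares are 28.8% and 26.6%, below the receptor-positive shares of 43.9% and 50%.

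Hashtag calls split the double-marker barcodes by depth as well. Barcodes with both hashtags had a median of 50281 UMIs in the COL1/STIFF pool and 46776 in the MATR/SOFT pool. Those with no hashtag had 17973 and 17770.5. Barcodes with 1 hashtag lay between, at 27215 for COL1, 28790 for STIFF, 31202 for MATR and 27325 for SOFT. Among the 320 and 268 double-marker barcodes with the fewest UMIs, 6.04% (2.80 to 11.2) and 0.787% (0.0199 to 4.31) of the tagged ones carried both hashtags.

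The double-marker barcodes differed widely in the lineage genes that the rule did not use. Whether they fall into separate kinds was not tested. For each barcode the UMIs per 10000 of the other 11 genes of the receptor-negative (HR-negative) luminal list, among them Elf5, Kit, Csn3 and Trf, were summed and set to 100% at the median of the Lcn2-high group. The other 12 genes of the hormone receptor-positive (HR-positive) list, among them Areg, Foxa1, Ly6a and Wnt4, were scaled in the same way to the receptor-positive group. In the COL1/STIFF pool the median double-marker barcode was at 61.4% of the HR-negative level (10th to 90th percentile 18.8 to 130%) and at 31.8% of the HR-positive level (0.958 to 85.7%). In the MATR/SOFT pool it was at 66.7% (7.14 to 159%) and 25.2% (0.836 to 90.2%). The median of the 2 levels added together was 103% and 108%, against 102% in both Lcn2-high groups and 106% in both receptor-positive groups.

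At a line of 25% on each scale, 577 double-marker barcodes of the COL1/STIFF pool (45.2%) and 351 of the MATR/SOFT pool (32.8%) were above it for both lists. The same held for 0.752% and 0.375% of Lcn2-high and for 2.54% and 2.02% of receptor-positive barcodes. The HR-positive level was under 25% in 538 (42.1%) and 534 (49.95%) double-marker barcodes, and in 99.0% and 99.0% of Lcn2-high barcodes. The line is wide of the Lcn2-high group, whose 90th percentile was 4.85% and 4.98%. The HR-negative level was under 25% in 184 (14.4%) and 211 (19.7%) double-marker barcodes, and some barcodes were under the line for both lists. Across double-marker barcodes the 2 levels ran against each other (Pearson r of -0.50 and -0.51 over 1277 and 1069 barcodes, given as a description, since both levels are shares of the same UMI total).

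**Figure D3:**
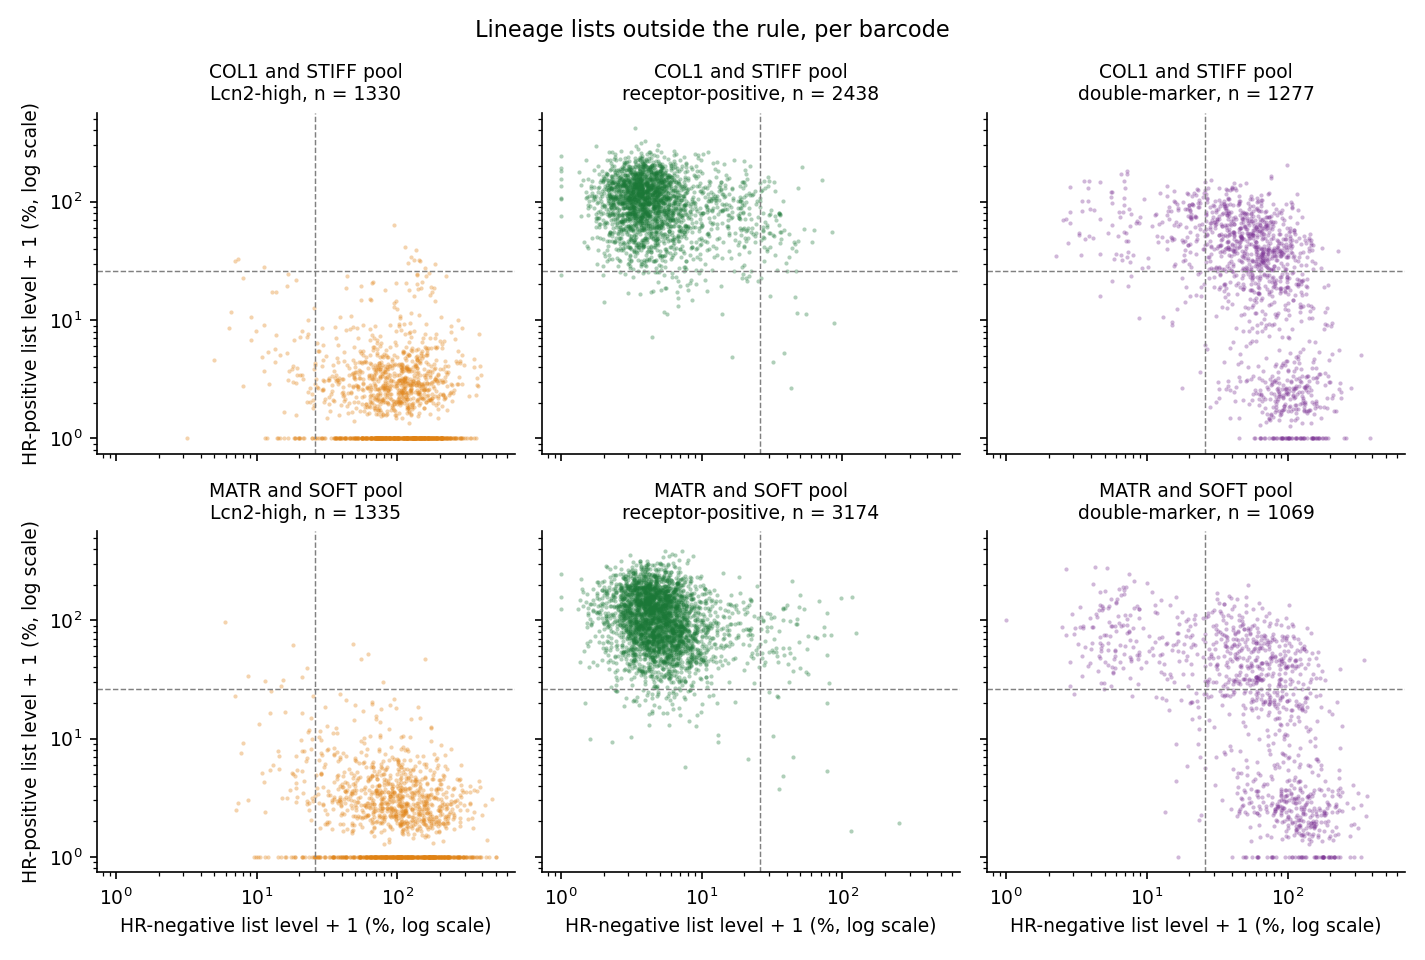
HR-negative against HR-positive list level of each luminal barcode (percent of the median of the matching single-marker group, plus 1, log axes), by group and pool, with dashed lines at the 25% line. Double-marker barcodes range from high HR-positive to high HR-negative levels, and part of them lie at HR-positive levels near those of Lcn2-high barcodes.

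The receptor counts were spread widely as well. Among the 2607 luminal barcodes past the Lcn2 minimum in the COL1/STIFF pool, 956 had under 1 receptor UMI per 10000, 422 had 1 to 2, 272 had 2 to 4, 224 had 4 to 8, 330 had 8 to 16 and 301 had 16 to 32. The 2404 barcodes of the MATR/SOFT pool gave 1084, 425, 264, 187, 242 and 170. In these ranges, which double in width, fewer barcodes lay at 4 to 8 than at 2 to 4 or at 8 to 16 in each pool. The low point exists only on this logarithmic scale, since the number per unit was lower in each successive range, at 136, 56.0 and 41.25 from 2 to 4 up to 8 to 16 in the COL1/STIFF pool and at 132, 46.75 and 30.25 in the other. At a split of 4 receptor UMIs per 10000, chosen after these values were seen, 350 double-marker barcodes (27.4%) in the COL1/STIFF pool and 446 (41.7%) in the MATR/SOFT pool were below it. They were deep, with medians of 28185 and 31369 UMIs, and held a median of 4 and 4.5 receptor UMIs. Their HR-positive level was 1.51% and 1.85%, close to the 1.21% and 1.26% of Lcn2-high barcodes, and their HR-negative level 92.3% and 102%. The 927 and 623 barcodes at or above the split had HR-negative levels of 52.8% and 46.2% and HR-positive levels of 43.5% and 48.6%. Both hashtags were carried by 12.6% (7.96 to 18.6) and 9.89% (6.62 to 14.1) of tagged barcodes below the split, and by 14.3% (11.8 to 17.1) and 16.02% (12.9 to 19.5) of those above it.

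Barcodes just inside and just outside the receptor minimum hardly differed. The 140 and 133 double-marker barcodes with exactly 3 receptor UMIs had median HR-positive levels of 1.54% and 1.51%, and the 271 and 253 Lcn2-high barcodes with 2 receptor UMIs had 1.37% and 1.19%. Their depths were 18027 and 20781 UMIs inside against 13325 and 17957 outside. At the Lcn2 minimum, the 74 and 77 double-marker barcodes at 50 to 60 Lcn2 UMIs per 10000 had HR-negative levels of 27.3% and 15.7%. The 85 and 76 receptor-positive barcodes at 40 to 50 had 18.4% and 13.5%.

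Detection of gene pairs outside the rule was set beside cell types that should lack them. Elf5 and Foxa1, transcription factors of the receptor-negative and of the hormone-sensing lineage, were both detected in 53.6% (50.9 to 56.4) of double-marker barcodes in the COL1/STIFF pool and in 44.2% (41.2 to 47.3) in the MATR/SOFT pool. In Lcn2-high barcodes the pair was found in 1.35% (0.804 to 2.13) and 3.97% (2.99 to 5.16), and in receptor-positive barcodes in 12.3% (10.99 to 13.6) and 9.36% (8.37 to 10.4). In fibroblast barcodes, with median depths of 15434 and 17430 UMIs, it was found in 0.750% (0.155 to 2.18) and 0.418% (0.0106 to 2.31). At 3000 UMIs per barcode the double-marker shares were 5.64% (4.44 to 7.05) and 3.84% (2.77 to 5.17), and the fibroblast share was 0 of 400 and 0 of 239. Lcn2-high barcodes then had 0% and 0.375%, and receptor-positive barcodes 1.31% and 0.882%.

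At 3000 UMIs per barcode, Trf with Stc2 and Kit with Wnt4 were also detected together most often in double-marker barcodes. Trf, the iron carrier transferrin, and Stc2, a secreted stanniocalcin, were detected together in 47.4% (44.6 to 50.2) and 35.6% (32.8 to 38.6) of double-marker barcodes, and in 29.9% and 19.3% of receptor-positive and 6.69% and 5.69% of Lcn2-high barcodes. Of the types that should lack the pair, 12 of 400 and 10 of 239 fibroblast barcodes held it, and macrophage barcodes, in which Trf itself was detected in 88.4% and 81.6%, had 7.34% (4.76 to 10.7) and 8.31% (5.75 to 11.5), so that the Lcn2-high shares were at this background. Kit, a receptor tyrosine kinase, and Wnt4 were detected together in 3.60% (2.65 to 4.78) and 3.46% (2.45 to 4.74) of double-marker barcodes at this depth, and in 0 of 400 and 0 of 239 fibroblast barcodes. Lcn2-high barcodes thinned in the same way had 0.226% and 0.300%, and receptor-positive barcodes 0.943% and 0.788%. With all UMIs the double-marker share was 46.4% (43.6 to 49.1) and 39.2% (36.3 to 42.2). The shares were then 2.03% and 3.15% of Lcn2-high and 6.48% and 4.03% of receptor-positive barcodes, but these groups were less deep.

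For the summed profiles, UMIs were added over the barcodes of a group and expressed as CPM, and log2 ratios were taken after adding 10 CPM. Genes at 10 CPM or more in at least 1 of the 3 groups were compared, and since the same cells were chosen by expression these values are a description. Of 8655 genes in the COL1/STIFF pool, 234 (2.7%) were at least 2-fold higher in double-marker than in Lcn2-high barcodes and 1 (0.0116%) was at least 2-fold lower. Against receptor-positive barcodes 295 (3.41%) were higher and 166 (1.92%) lower. Of 8485 genes in the MATR/SOFT pool the counts were 155 (1.83%) and 2 (0.0236%) against Lcn2-high barcodes and 363 (4.28%) and 230 (2.71%) against receptor-positive barcodes.

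The genes at least 2-fold lower than in Lcn2-high barcodes, named after their values were seen, were AY036118, at 29.4 against 92.4 CPM in the COL1/STIFF pool and 36.8 against 110 in the other, and Ankrd1, a cofactor induced by mechanical strain, at 5.01 against 22.1 CPM in the MATR/SOFT pool.

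Nearly every gene that separated the single-marker groups lay between them in double-marker barcodes. Of 827 genes at least 2-fold apart, at 50 CPM or more in 1 group, 826 lay between in the COL1/STIFF pool, and of 802 in the MATR/SOFT pool 801 did. The exceptions were Apod, an apolipoprotein, at 58.2 CPM against 51.2 and 4.38 in the first pool, and the complement gene C3 at 110 CPM against 108 and 19.5 in the second. On a linear scale from 0% at the receptor-positive to 100% at the Lcn2-high level, the median gene stood at 64.1% (SD over genes 8.24) and 70.5% (SD 7.41). The 274 genes higher in Lcn2-high barcodes had a median of 65.7% and the 553 genes higher in receptor-positive barcodes one of 63.5%. In the MATR/SOFT pool these were 72.5% for 291 genes and 69.8% for 511. Genes of both lineages thus sat at nearly the same point. For barcodes at or above the split of 4 receptor UMIs per 10000 the median position was 51.7% and 49.6%, and for those below it 95.5% and 95.7%. With all groups limited to 8000 to 20000 UMIs, where 375 and 291 double-marker barcodes remained, it was 58.3% and 56.8%.

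Receptor-negative lineage genes stood high in double-marker barcodes. Lcn2 belongs to the list and to the rule, and was left out. Of the other 11 genes 10 were measured, and 9 of these were at least 2-fold above the receptor-positive group (3.41% and 4.28% of all genes) and 0 at least 2-fold below the Lcn2-high group (0.0116% and 0.0236%) in each pool. The median log2 ratio of these genes over the receptor-positive group was 2.83 and 3.12, against -0.09 and -0.06 over all genes. Since the groups were cut by lineage genes, these counts describe the barcodes and support nothing further. Elf5, which directs alveolar fate, stood at 212 CPM in double-marker, 325 in Lcn2-high and 21.5 in receptor-positive barcodes of the COL1/STIFF pool. Csn3, the milk protein kappa-casein, was at 6322, 10584 and 432 CPM. Ltf, the iron-binding lactoferrin, was at 417, 587 and 21.7 CPM. In the MATR/SOFT pool Elf5 was at 236, 316 and 15.5 CPM and Ltf at 641, 767 and 31.2.

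Hormone-sensing lineage genes stood high in the same summed barcodes. The 4 receptor genes of the rule were left out of this list. Of the other 12 members 9 were measured, of which 7 in the COL1/STIFF pool and 8 in the MATR/SOFT pool were at least 2-fold above the Lcn2-high group (2.7% and 1.83% of all genes), and 8 in each were at least 2-fold below the receptor-positive group (1.92% and 2.71%). The median log2 ratio of these genes over the Lcn2-high group was 2.99 and 2.87, against 0.06 and 0.04 over all genes. Areg, the EGF receptor ligand that relays the oestrogen signal, was at 995 CPM in double-marker, 29.7 in Lcn2-high and 3080 in receptor-positive barcodes of the COL1/STIFF pool, and at 706, 19.2 and 2758 CPM in the MATR/SOFT pool. Foxa1, a pioneer factor of oestrogen receptor binding, was at 60.9, 1.55 and 152 CPM and at 52.1, 3.17 and 147 CPM. Wnt4, a progesterone-induced ligand, was at 113, 3.28 and 295 CPM and at 114, 4.09 and 345 CPM. Tnfsf11, the ligand RANKL, reached 0.0258 CPM in double-marker barcodes of the first pool and was at 0 in those of the second.

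Hormone receptor effectors outside the receptors themselves followed the same pattern in part. Areg, Tnfsf11, Wnt4 and Calca belong both to this list and to the HR-positive list, so the lists are not independent. Of 15 listed effectors and targets, 12 were measured in each pool, 5 in each were at least 2-fold above the Lcn2-high group (2.7% and 1.83% of all genes), and 5 in each were at least 2-fold below the receptor-positive group (1.92% and 2.71%). Their median log2 ratio was 0.58 and 0.60 over the Lcn2-high group, against 0.06 and 0.04 over all genes, and -0.46 and -0.61 over the receptor-positive group, against -0.09 and -0.06. Greb1, an oestrogen-induced gene, was at 34.7 CPM in double-marker, 0.680 in Lcn2-high and 85.0 in receptor-positive barcodes of the COL1/STIFF pool. Fgfr2, a receptor for fibroblast growth factors, was at 20.3, 1.67 and 53.1 CPM. Stat5a, which carries the prolactin signal, was at 23.3, 8.66 and 42.1 CPM. Igfbp5, a binding protein of insulin-like growth factors, ran the other way, at 3582, 4557 and 308 CPM.

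**Figure D4:**
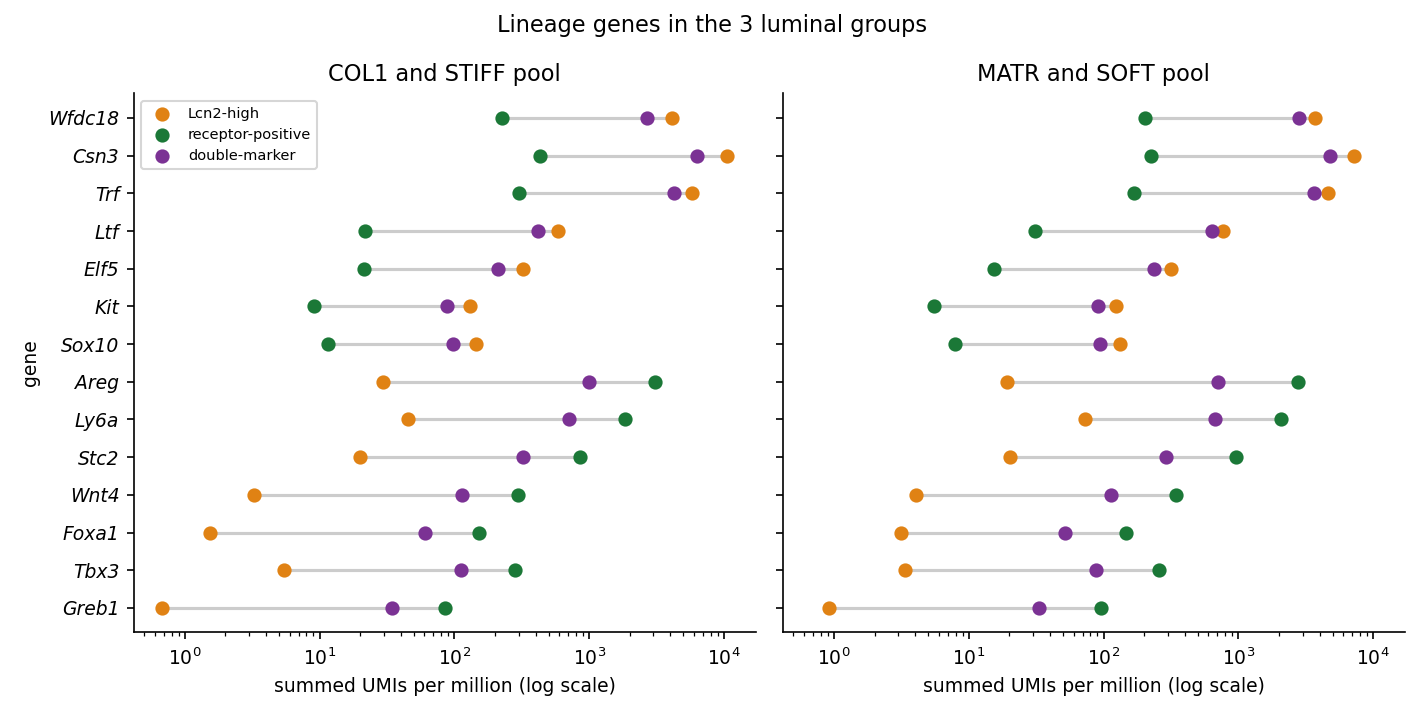
Summed CPM (log axis) of 14 lineage genes in Lcn2-high, receptor-positive and double-marker barcodes of each pool, with a grey line joining the single-marker groups. Every double-marker point lies between the other two, for receptor-negative genes such as Elf5 (212 between 21.5 and 325) and for hormone-sensing genes such as Areg (995 between 29.7 and 3080).

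Lineage transcription factors of either side were detected in the same summed barcodes. Of 18 listed factors 13 were measured, and 10 differed at least 2-fold between the single-marker groups, with all 10 lying between them in each pool, as did 826 of 827 and 801 of 802 of all such genes. Sox10, a factor of receptor-negative and basal epithelium, was at 97.1 CPM in double-marker, 145 in Lcn2-high and 11.6 in receptor-positive barcodes of the COL1/STIFF pool. Tbx3, a factor of hormone-sensing cells, was at 113, 5.44 and 283 CPM. Hey1, a Notch target, was at 200, 277 and 14.4 CPM. Gata3, which luminal cells of both kinds need, was at 309, 196 and 433 CPM.

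On the scale from the receptor-positive to the Lcn2-high level, milk proteins stood below the median separating gene in each pool. Their median position was 55.1% and 65.0%, over only 3 separating milk protein genes in each pool. The 11 and 10 separating acute phase and innate secretory genes had medians of 63.0% and 76.9%. Over all separating genes the median was 64.1% and 70.5%, with 10th to 90th percentiles of 55.5 to 73.3% and 62.6 to 79.8%. All 12 acute phase and innate secretory genes other than Lcn2 were measured, 9 and 10 were at least 2-fold above the receptor-positive group (3.41% and 4.28% of all genes) and 0 at least 2-fold below the Lcn2-high group. Saa1, a serum amyloid, was at 2207 CPM in double-marker, 3918 in Lcn2-high and 86.8 in receptor-positive barcodes of the COL1/STIFF pool. Saa2, a second serum amyloid, was at 751, 1507 and 35.4 CPM, and at 647, 1207 and 14.7 CPM in the other pool. It thus stood at 48.6% and 53.04% of the scale, below the 10th percentile of separating genes in each pool. Chil1, a chitinase-like secreted protein, was at 4518, 7789 and 243 CPM. Csn1s1, an alpha-casein, was at 362, 631 and 33.3 CPM, whereas Wap, the whey acidic protein, was at 1.47, 2.66 and 0.134 CPM.

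The genes furthest above the Lcn2-high group were Pcp4, a calmodulin regulator, at 4408 CPM in double-marker, 139 in Lcn2-high and 12645 in receptor-positive barcodes of the COL1/STIFF pool, Areg, the proteoglycan Dcn, at 405, 9.03 and 1108 CPM, and Sprr1a, a cornified envelope protein, at 875, 39.8 and 2317 CPM. Genes of 2 luminal states were carried over as well. Both states were described in these cultures, and their lists were chosen with earlier results of these data known. The counts therefore describe the barcodes and support nothing further. All 9 genes of the state with Krt4 and Defb14 were measured in the COL1/STIFF pool, 8 of them at least 2-fold above the Lcn2-high (2.7% of all genes) and 7 at least 2-fold below the receptor-positive group (1.92%). Of 8 measured in the MATR/SOFT pool, 6 were above (1.83%) and 7 below (2.71%). The median log2 ratio over the Lcn2-high group was 2.57 and 2.14, against 0.06 and 0.04 over all genes. Krt4, a keratin of stratified epithelium, was at 91.2, 3.15 and 249 CPM. Of 5 genes of the state with Ffar4 and Reg3b, 3 in each pool were at least 2-fold above the Lcn2-high group, with a median log2 ratio of 1.24 and 1.45, and Ffar4, a fatty acid receptor, was at 56.5, 3.15 and 132 CPM.

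No gene tested was at least 2-fold above both single-marker groups in either pool, and 0 of 8655 and 0 of 8485 reached 1.5-fold. With all groups limited to 8000 to 20000 UMIs, 5 of 8603 and 4 of 8493 genes reached 1.5-fold and 0 reached 2-fold. Named after their values were seen, these were the fibroblast matrix genes Col1a1 (51.4 CPM against 17.03 in Lcn2-high and 24.1 in receptor-positive barcodes), Col1a2, Sparc, Col5a2 and Fstl1 in the COL1/STIFF pool. Those of the MATR/SOFT pool were Scgb1a1 (45 UMIs against 0 and 14, with a log2 excess of 0.98), the interferon-induced Rsad2 (39.2 CPM against 11.6 and 17.6), Ptgs2 and Sftpd. By a rule that takes the lower of the 2 pools, Bcl9l, a coactivator of beta-catenin, stood furthest above both, with a log2 excess of 0.21 (80.5 CPM against 66.0 and 67.3 in the COL1/STIFF pool, and 89.9 against 76.2 and 75.3 in the other). Ppp4c, the catalytic subunit of protein phosphatase 4, followed at 0.13, and 8 genes in all exceeded 0.10 at all depths. On the other side, 0 and 1 genes were at least 2-fold below both groups, and 2 and 1 at least 1.5-fold below. The lowest log2 ratio was -0.96 and -1.21. Among the genes that passed the filters for naming, Malat1, a nuclear non-coding RNA, stood furthest below both groups. It was at 8063 CPM against 11799 and 18568 in the COL1/STIFF pool and at 5903 against 9560 and 8824 in the other. Epcam, an adhesion protein of epithelium, was at 1772 against 1928 and 2029 CPM. Mitochondrial UMIs had a median of 3.64% and 3.69% in double-marker barcodes, 3.51% and 3.45% in Lcn2-high and 3.60% and 4.15% in receptor-positive barcodes.

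Markers of other cell types were low in most double-marker barcodes. The summed macrophage list had a median of 0.738 and 0.732 UMIs per 10000, against 454 and 480 in macrophage barcodes. At least 20 UMIs per 10000 of the 5 macrophage genes above were held by 47 double-marker barcodes (3.68%, 2.72 to 4.86) in the COL1/STIFF pool and 13 (1.22%, 0.649 to 2.07) in the other. Of the tagged ones, 21 of 41 and 7 of 13 carried both hashtags. Without these barcodes, 12.2% (10.1 to 14.6) and 13.2% (10.9 to 15.8) of tagged double-marker barcodes carried both. The basal list without its keratins had a median of 0.170 and 0 UMIs per 10000, against 52.2 and 62.4 in basal barcodes. The fibroblast list was at 1.16 and 0.903, against 150.2 and 152 in fibroblast barcodes and 4.34 and 5.83 in receptor-positive barcodes, which express its member Dcn. The median was 0 for the endothelial and T cell lists, and Cd8a was at 0 in both pools.

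Among luminal barcodes with 1 hashtag called, the double-marker share was 174 of 882 in COL1, or 19.7% (17.1 to 22.5), and 595 of 1878 in STIFF, or 31.7% (29.6 to 33.8). In the other channel it was 385 of 1860 in MATR, or 20.7% (18.9 to 22.6), and 291 of 1407 in SOFT, or 20.7% (18.6 to 22.9). STIFF was above COL1 beyond counting error, and MATR and SOFT did not differ beyond it. By the relative rule COL1 had 21.6% (19.4 to 23.8) and STIFF 28.2% (26.5 to 29.95), MATR 21.2% (19.6 to 22.8) and SOFT 16.9% (15.4 to 18.4), so that STIFF was again above COL1 while MATR was then above SOFT. Hashtag 2, that of STIFF, was called in 2451 barcodes and hashtag 1 in 1563, with 5249 left without a call. The Lcn2-high group supplied 160 of the 882 luminal barcodes tagged COL1 and 91 of the 1878 tagged STIFF, and 80.8% of that group had no call in this pool. The part of these calls in the shares was not tested. Between COL1 and MATR or STIFF and SOFT, condition and channel cannot be told apart.

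**Figure D5:**
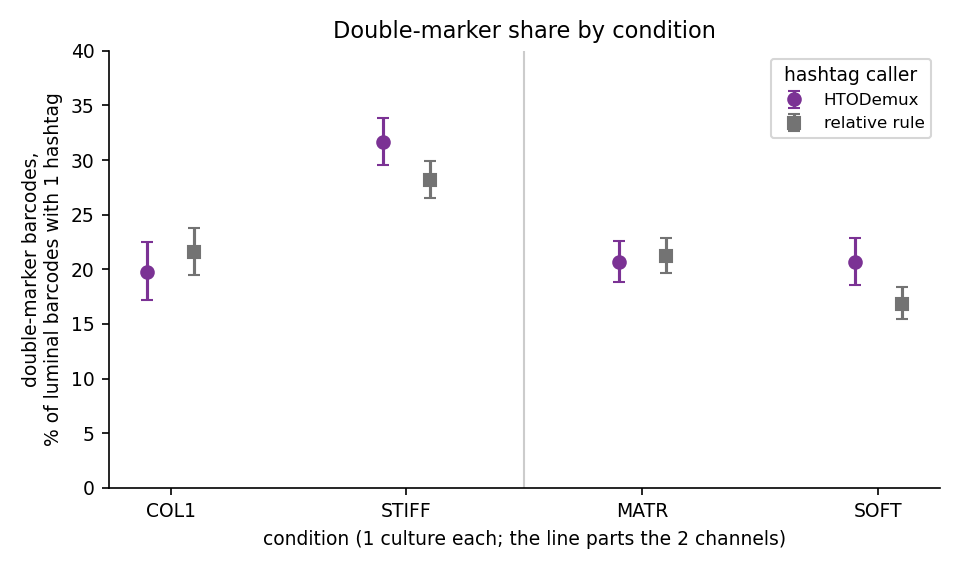
Double-marker barcodes as a percentage of luminal barcodes with 1 hashtag, per condition and hashtag caller, with exact 95% intervals for counting error. STIFF has the highest share with both callers (31.7% and 28.2%), and SOFT is at 20.7% with the main calls and 16.9% with the relative rule.

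The balance of the lineages within double-marker barcodes also varied between the cultures of each pool. In the COL1/STIFF pool the median HR-negative level was 44.9% in COL1 and 59.6% in STIFF. In the MATR/SOFT pool it was 84.6% in MATR and 46.4% in SOFT. The median HR-positive level was 28.4% in MATR, 38.2% in STIFF, 39.6% in SOFT and 35.0% in COL1. Each level is relative to the single-marker group of its own pool. The median of that group was higher in the COL1/STIFF pool for both lists. Levels were therefore not ranked across the pools, between which condition and channel cannot be told apart. By the relative rule the HR-negative level was 46.7% in COL1 and 63.2% in STIFF. It was 87.8% in MATR and 46.6% in SOFT, so that the direction within each pool was kept. The HR-positive level was then 36.6% in COL1 and 33.5% in STIFF, so that their order changed with the caller. It was 20.6% in MATR and 31.2% in SOFT, and MATR was below SOFT with both callers.

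Between COL1 and STIFF few genes of double-marker barcodes differed 2-fold. Of 8183 genes, 3 (0.0367%) were at least 2-fold higher in COL1 and 12 (0.147%) at least 2-fold lower, from 174 and 595 barcodes with 5246825 and 19269282 UMIs. With the relative rule the balance turned, to 12 genes higher and 1 lower. Klk1b27, a kallikrein, was at 18.9 CPM in COL1 and 147 in STIFF, or 7.78-fold higher in STIFF (6.37 to 9.61). Gpx3, the extracellular glutathione peroxidase, was at 138 and 600 CPM, or 4.35-fold higher in STIFF (4.03 to 4.70), and Defb14, a beta-defensin, at 20.01 and 72.6 CPM, or 3.63-fold (2.97 to 4.46). Receptor-positive barcodes differed in the same direction, with Klk1b27 at 17.8 and 342 CPM and Gpx3 at 388 and 1538 CPM. With the relative rule the log2 ratios in double-marker barcodes were smaller, at -1.28 for Klk1b27, -0.93 for Gpx3 and -0.37 for Defb14, against -2.44, -2.04 and -1.46.

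The 3 genes higher in COL1 were Mgp and, named after their values were seen, the chemokines Ccl5, at 20.8 and 2.75 CPM, and Pf4, at 15.8 and 2.59 CPM. Mgp, a matrix protein that inhibits calcification, was at 83.5 and 33.8 CPM, or 2.47-fold (2.18 to 2.79). Without the barcodes with macrophage genes 2 genes were at least 2-fold higher, Ccl5 with a log2 ratio of 1.26 and Ifi27l2a with 1.08. Pf4 was then at 1.36 and 1.25 CPM and Mgp at 48.2 and 34.2 CPM. With an Lcn2 minimum of 100 the log2 ratio of Mgp turned from 1.09 to -0.040. Ifi27l2a, an interferon-induced gene, was at 102 and 48.5 CPM, or 2.10-fold (1.89 to 2.34), and Dcn at 668 and 368 CPM, or 1.81-fold (1.74 to 1.89). The log2 ratio of Dcn fell from 0.84 to 0.11 with an Lcn2 minimum of 100, while that of Ifi27l2a rose from 0.94 to 1.29. The fibroblast list had a median log2 ratio of -0.74 with the main calls and 0.99 with the relative rule, so that its direction depended on the caller.

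Between MATR and SOFT, 10 of 8133 genes (0.123%) were at least 2-fold higher in MATR and 13 (0.16%) at least 2-fold lower, from 385 and 291 barcodes with 13068718 and 8914707 UMIs. The relative rule gave 6 and 6. Genes of the state with Krt4 and Defb14 stood higher in MATR. Their list was chosen with earlier results of these data known, so its count and median describe these barcodes and support nothing further. Of 9 such genes 7 were measured and 6 were at least 2-fold higher, with a median log2 ratio of 1.38 against -0.04 over all genes and 1.30 for the same genes in receptor-positive barcodes. Krt4 was at 157 CPM in MATR and 54.4 in SOFT, or 2.89-fold higher (2.62 to 3.20), and Krt78, another keratin, at 98.1 and 27.6 CPM, or 3.55-fold (3.10 to 4.09). Sprr2f, a cornified envelope protein, was at 82.4 and 6.95 CPM, with 58.0 and 1.48 CPM left without the barcodes with macrophage genes, but its log2 ratio turned from 2.45 to -0.34 with the relative rule. Cbr2, a carbonyl reductase, was at 63.0 and 15.3 CPM, or 4.13-fold higher (3.44 to 4.99).

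Of the 5 genes of the state with Ffar4 and Reg3b, all measured, 2 were at least 2-fold higher in SOFT after the 10 CPM were added, Reg3b and Calcb. The median log2 ratio of the 5 was -0.99, against -0.04 over all genes. This list too was chosen with earlier results of these data known, so these values are a description. Reg3b, an antimicrobial lectin, was at 2.37 CPM in MATR and 51.6 in SOFT, or 21.8-fold higher in SOFT (15.1 to 32.4), and Ffar4 at 51.5 and 112 CPM, or 2.18-fold (1.98 to 2.41) and a log2 ratio of -0.99 with the 10 CPM added. In receptor-positive barcodes Reg3b was at 11.7 and 80.0 CPM. Igfbp7, a secreted binding protein, was at 77.4 and 215 CPM, or 2.77-fold higher in SOFT (2.57 to 2.99), and Hmox1, haem oxygenase, at 30.4 and 81.0 CPM, or 2.67-fold (2.36 to 3.02). Igfbp7 stood at 83.2 and 421 CPM in Lcn2-high barcodes. With a receptor minimum of 4 per 10000 the log2 ratio of Hmox1 went from -1.17 to -0.56, while that of Igfbp7 was -1.38 against -1.36. The HR-negative list, here with the rule gene Lcn2, was shifted towards MATR. Its median log2 ratio was 0.46 over 11 measured genes, against -0.04 over all genes. The same list had 0.40 in Lcn2-high and 0.08 in receptor-positive barcodes, so the shift was not particular to double-marker barcodes. Of the 11 genes 0 reached 2-fold, which is near the shares over all genes (0.123% higher and 0.16% lower).

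Across the channels, 43 of 8226 genes (0.523%) were at least 2-fold higher in STIFF than in SOFT and 9 (0.109%) at least 2-fold lower. This comparison uses the same STIFF barcodes as that with COL1 and the same SOFT barcodes as that with MATR. Klk1b27 was at 147 CPM in STIFF and 4.82 in SOFT, Defb14 at 72.6 and 4.94, Gpx3 at 600 and 96.5, and Apod at 52.5 and 4.49. On the other side, Hmox1 was at 29.2 CPM in STIFF and 81.0 in SOFT, Mt2, a metallothionein, at 142 and 338, and Ndrg1, a hypoxia-responsive gene, at 144 and 305. A receptor minimum of 4 per 10000 moved the log2 ratio of Hmox1 from -1.21 to -0.63 and that of Ndrg1 from -1.03 to -0.79. That of Mt2 moved the other way, from -1.19 to -1.43.

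COL1 over MATR gave 27 of 8136 genes (0.332%) at least 2-fold higher and 4 (0.0492%) at least 2-fold lower, and 67 were higher with the relative rule. The leading gene, the lysozyme Lyz2, was at 393 CPM in COL1 and 89.5 in MATR, and 3 of 6 measured macrophage list genes were at least 2-fold higher. Without barcodes that held macrophage genes Lyz2 was at 56.4 and 52.7 CPM, and 15 genes remained at least 2-fold higher. Vim, the intermediate filament vimentin, was at 65.2 and 21.7 CPM, and at 49.0 and 19.2 CPM without those barcodes. The chemokine Cxcl1 was at 71.3 and 24.5 CPM. F3, tissue factor, was lower in COL1, at 100.4 against 234 CPM, and so were Thbs1, a matricellular protein, at 135 against 293, Cbr2, at 19.4 against 63.0, and Ifit3, an interferon-induced gene named after its values were seen, at 4.96 against 20.3.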

How the data were processed

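Droplet single-cell RNA libraries of 2 hashtagged pools were analysed. Per the file headers, Cell Ranger 5.0.0 wrote the deposited matrices, whose values are whole-number UMI counts with no normalization. The submitters' processing notes further list Seurat 4.2.0 and mm10. The filter behind the deposited barcode set is not given in the sources used here. Each pool was deposited as 2 entries whose gene counts differed in 0 entries, so each was read once. Of 32285 genes, 26296 symbols were in the RefSeq table used for positions. The members and gene lists were chosen with earlier results of these data known.

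Hashtags 1 and 2 were called with HTODemux (Seurat 5.3.0, R 4.3.3, quantile 0.99) on barcodes of at least 1000 UMIs, 500 genes and at most 15% mitochondrial UMIs. The relative rule divides each hashtag by its median over barcodes, calls 1 hashtag where the larger is at least 2 times the smaller, and calls both where both are at least 4 times background and closer than that. No doublet caller was run and no barcode was removed as a doublet. Shares have exact Clopper-Pearson intervals, ratios of summed counts exact conditional binomial intervals and medians order-statistic intervals. These cover counting error only, since UMIs of 1 culture are not replicates. The comparison types were fibroblast (at least 50 UMIs per 10000 of Col1a1, Col1a2 and Col3a1), macrophage (at least 50 of the 5 macrophage genes) and basal (at least 50 of the basal keratins), all below the luminal keratin minimum.

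Genes named outside the lists were the 10 furthest above and the 10 furthest below both single-marker groups, the 8 highest and lowest against each group, and the 6 highest and lowest per condition comparison. They needed at least 200 UMIs (100 between conditions) and 50 CPM in 1 group, left out mitochondrial, ribosomal, haemoglobin and unnamed genes, and were described in part. Alternatives covered the rule's minimums, hashtag caller, pseudocount, expression minimum, depth window and barcodes with both hashtags. The split at 4 receptor UMIs per 10000 and the removal of barcodes with macrophage genes were added after seeing the data. Procedures were tested on simulated data. Python 3.11.15, numpy 2.4.6, scipy 1.17.1, pandas 2.3.3 and matplotlib 3.10.9 were used.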

Additional observations from a re-analysis of the deposited data

Results flagged for a closer look

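Hashtag 3, which the labels assign to no culture, was counted in both pools. Double-marker barcodes held 2435 UMIs of it in the COL1 and STIFF pool and 2224 in the MATR and SOFT pool, with a median of 1 per barcode in each. These stand beside 636721 and 3331256 UMIs of hashtags 1 and 2 in the first pool and 650538 and 1422590 in the second. Hashtag 3 was detected in 51.4% and 62.5% of double-marker barcodes and in 38.6% and 47.7% of all barcodes. The highest count in a double-marker barcode was 79 and 51.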

How the results depend on the processing

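No paired analysis was possible because each condition was 1 culture. Of the alternative values of the main results, 142 stayed close to the value reported and 70 moved; of those of named genes and positions, 192 stayed, 108 moved and 2 changed sign. These were Sprr2f in MATR over SOFT, at -0.34 with the relative rule, and Mgp in COL1 over STIFF, at -0.040 with an Lcn2 minimum of 100. The median depth of double-marker barcodes was 23141 UMIs in the COL1/STIFF pool with a minimum of 1000 UMIs. With receptor minimums of 2 UMIs, 5 UMIs, 2 per 10000 and 4 per 10000 it was 23685.5, 28437, 21685 and 25205 there and 25384, 29446, 23301 and 25542 in the MATR/SOFT pool, where Lcn2 minimums of 25 and 100 gave 26512.5 and 30569. The 4 per 10000 minimum left 631 double-marker barcodes in the MATR/SOFT pool. Both hashtags were on 2.39% and 2.99% with the relative rule and on 7.27% and 9.15% at 15000 to 40000 UMIs.

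A pseudocount of 1 CPM gave 575 and 380 genes at least 2-fold above the Lcn2-high group and 2 below it in the COL1/STIFF pool, and 548 and 609 above and 439 and 510 below the receptor-positive group. At 50 CPM the MATR/SOFT pool had 219 genes above the receptor-positive and 1 below the Lcn2-high group. At 8000 to 20000 UMIs 10 and 12 genes were below the Lcn2-high group, 101 and 101 below the receptor-positive group, and 302 above the Lcn2-high group in the MATR/SOFT pool. Against Lcn2-high barcodes with 0 receptor UMIs, 2 and 4 genes were lower, and 98.3% of separating genes lay between in the MATR/SOFT pool. The 4 per 10000 minimum gave 3 and 13 genes below the Lcn2-high and 40 and 27 below the receptor-positive group, and 266 and 232 above them in the MATR/SOFT pool.

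The relative rule gave 12 genes higher and 1 lower in COL1 over STIFF, 6 and 6 in MATR over SOFT, 67 higher in COL1 over MATR, and double-marker shares of 28.2% in STIFF and 16.9% in SOFT. A pseudocount of 1 CPM gave 12 higher and 27 lower (COL1 over STIFF), 29 and 57 (MATR over SOFT), 74 and 9 (COL1 over MATR) and 92 and 22 (STIFF over SOFT). An Lcn2 minimum of 100 gave 6 genes higher in COL1 over STIFF, and the 4 per 10000 minimum 23 lower in MATR and 16 lower in STIFF, each over SOFT. Without barcodes of macrophage genes 15 were higher in COL1 over MATR. For COL1, STIFF, MATR and SOFT the shares were 16.9%, 29.2%, 17.2% and 17.6% with 5 receptor UMIs, 11.8%, 21.1%, 14.4% and 12.7% with Lcn2 at 100, and 14.97%, 26.2%, 12.8% and 13.6% with 4 receptor UMIs per 10000. STIFF had the highest share under each of these. The causes were not tested.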

Other observations

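Cell cycle, hypoxia, immediate early and Notch genes lay outside the lineage lists. In the COL1 and STIFF pool 0 of 9 measured G2/M genes differed 2-fold from either group, with Top2a, a topoisomerase of dividing cells, at 19.4 CPM in double-marker, 22.6 in Lcn2-high and 10.2 in receptor-positive barcodes. Of 6 measured in the MATR and SOFT pool 1 was at least 2-fold above the receptor-positive group, Ube2c, a ubiquitin-conjugating enzyme of mitosis, at 22.4 against 4.67 CPM, and the median log2 ratio of the 6 was 0.80. Of 7 measured S phase genes 0 in each pool differed 2-fold from either group. Over all genes, 2.7% and 1.83% were at least 2-fold above the Lcn2-high group and 0.0116% and 0.0236% below it. Against the receptor-positive group 3.41% and 4.28% were above and 1.92% and 2.71% below. In lists this short, counts of 0 are near these shares and mark no trait of the cell cycle genes. Among 15 hypoxia and glycolysis genes, the mitophagy receptor Bnip3 was at 230 CPM against 54.0 and 488, and the glycolytic enzyme Pgk1 at 982 against 443 and 1660. Of 16 measured immediate early genes, 5 differed 2-fold between the single-marker groups and all 5 lay between them in each pool, as did 826 of 827 and 801 of 802 of all genes that differed so. Egr1 was at 963 CPM against 1159 and 472. Notch1, a receptor of the Notch pathway, was at 123 CPM against 141 and 17.6.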
